A study of Arabidopsis thaliana with 12 samples.

Results

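CRK36 (AT4G04490), CRK37 (AT4G04500), CRK38 (AT4G04510), CRK39 (AT4G04540) and CRK40 (AT4G04570) are 5 cysteine-rich receptor-like kinase genes of the short arm of Arabidopsis chromosome 4. They were chosen by their names and positions, with earlier results of these data known. They make up 5 of the 27444 protein-coding genes and 5 of the 37899 nuclear genes of the RefSeq annotation of TAIR10.1. The level of CpG methylation was measured over each gene body, over the 1000 bp on either side, and over the loci that lie between them. The study set SA-CNPs (salicylic acid carried by chitosan nanoparticles) and pathogen (inoculation with the powdery mildew Podosphaera xanthii) against Control in wild-type plants of the ecotype labelled Col-O, with 4 leaf libraries in each of the 3 groups and 12 libraries in all. The libraries came from 2 plant samples in each group, and the study's methods describe the material as whole young plants without roots. The study also describes plants given SA-CNPs and the pathogen together, but no library label names that combination. The CpG data analysed here are 1 table in which reads of several libraries were pooled, and the sources used here do not name those libraries. The name of the table holds a code with which the titles of the SA-CNPs libraries also begin, so its reads may come from SA-CNPs plants alone, but a name was not taken as a label. The values below therefore belong to 1 pooled sample of unknown treatment, have no replicate error and allow no comparison between the 3 groups.

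A cysteine-rich receptor-like kinase carries cysteine-rich DUF26 domains outside the cell, a span through the plasma membrane and a kinase domain inside the cell, and many genes of the family respond to pathogens, salicylic acid or reactive oxygen species. In plants, CpG methylation is copied to both strands after replication by the methyltransferase MET1. Dense CpG methylation is typical of transposons, pseudogenes and heterochromatin, whereas in active genes it is often limited to the interior of the gene and leaves both ends free. In Col-0 the short arm of chromosome 4 carries a knob, a block of heterochromatin apart from the centromere, whose exact position was not taken from any source here.

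The 5 genes were read to about the same depth as the rest of the genome. All 902 CpG cytosines of their bodies were covered, with a median of 59 reads. The stretch that holds them, 1000 bp on either side included, runs over 63249 bp of chromosome 4 (positions 2230717 to 2293965) and had 1 uncovered cytosine of 3150, with a median of 55 reads and extremes of 8 and 93 reads. In the nuclear genome 1.84% of CpG cytosines were uncovered, and the covered ones had a median of 58 reads (5th to 95th percentile 35 to 78). Every covered cytosine had at least 5 reads. The thinnest coverage was in the 250 bp that end 750 bp above CRK36, with a median of 32 reads, and over the first 255 bp of CRK37, with a median of 35.

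The level of a region is the percentage of methylated calls among all calls at its CpG cytosines. The range beside it is the 95% Wilson interval. Such intervals reflect counting error alone, since calls on the same read were handled as if they were separate. Over the 5 bodies together, 9249 of 53245 calls were methylated, a level of 17.4% (17.1 to 17.7%). Over the DNA between the 5 genes the level was 82.7% (82.4 to 82.9%) at 2171 cytosines. The cytosines of the bodies were thus mostly free of methylation within a methylated stretch. Of the 902 cytosines in the bodies, 687 (76.2%) had a level below 25%, 105 (11.6%) lay between 25% and 75%, and 110 (12.2%) were above 75%. No methylated call at all was read at 515 of them (57.1%).

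The body of CRK36, at positions 2231717 to 2234689 (2973 bp), had the highest level, with 2698 of 10614 calls methylated, or 25.4% (24.6 to 26.3%). Its 170 cytosines ran from 0% to 93.0% with a median of 1.41%. CRK36 is known as a kinase that acts together with another member of the family, ARCK1, in the response to abscisic acid. Below 25% lay 110 cytosines of CRK36, 29 lay between 25% and 75%, and 31 above 75%.

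CRK40, at positions 2288616 to 2292965 (4350 bp, the longest of the 5), had 2885 of 11662 calls methylated, or 24.7% (24.0 to 25.5%). Its 198 cytosines ran from 0% to 100%, with a median of 0%. It held the most cytosines above 75%, with 44, beside 25 between 25% and 75% and 129 below 25%.

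CRK39, at positions 2259498 to 2262320 (2823 bp), had 2215 of 10515 calls methylated, or 21.1% (20.3 to 21.9%). The levels of its 179 cytosines had a median of 1.59% and reached 100%. In CRK39, 129 cytosines lay below 25%, 28 between 25% and 75%, and 22 above 75%.

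CRK38 and CRK37 were the least methylated. CRK38, at positions 2242072 to 2244930 (2859 bp), had 1103 of 12287 calls methylated, or 8.98% (8.48 to 9.50%). It had the most cytosines of the 5, with 208, of which 178 lay below 25%, 22 between 25% and 75% and only 8 above 75%. CRK37, at positions 2238370 to 2240921 (2552 bp), had 348 of 8167 calls methylated, or 4.26% (3.84 to 4.72%). Of its 147 cytosines, 141 lay below 25%, 1 between 25% and 75% and 5 above 75%, and 103 had no methylated call.

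The bodies of CRK36 and CRK40 could not be told apart at this depth, with a difference of 0.68 percentage points (95% Newcombe interval -0.46 to 1.82). The differences of the other 9 pairs of bodies had intervals that did not include 0. The smallest of these was between CRK39 and CRK40, at -3.67 points (-4.78 to -2.57). CRK37 differed from CRK38 by -4.72 points (-5.38 to -4.04). Counting error alone enters these intervals, and the spread between plants is not known. When the levels of single cytosines were averaged in place of the calls, CRK40 came to 27.1% and CRK36 to 26.0%, so the order of these 2 genes depends on how the level is taken.

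**Figure D1:**
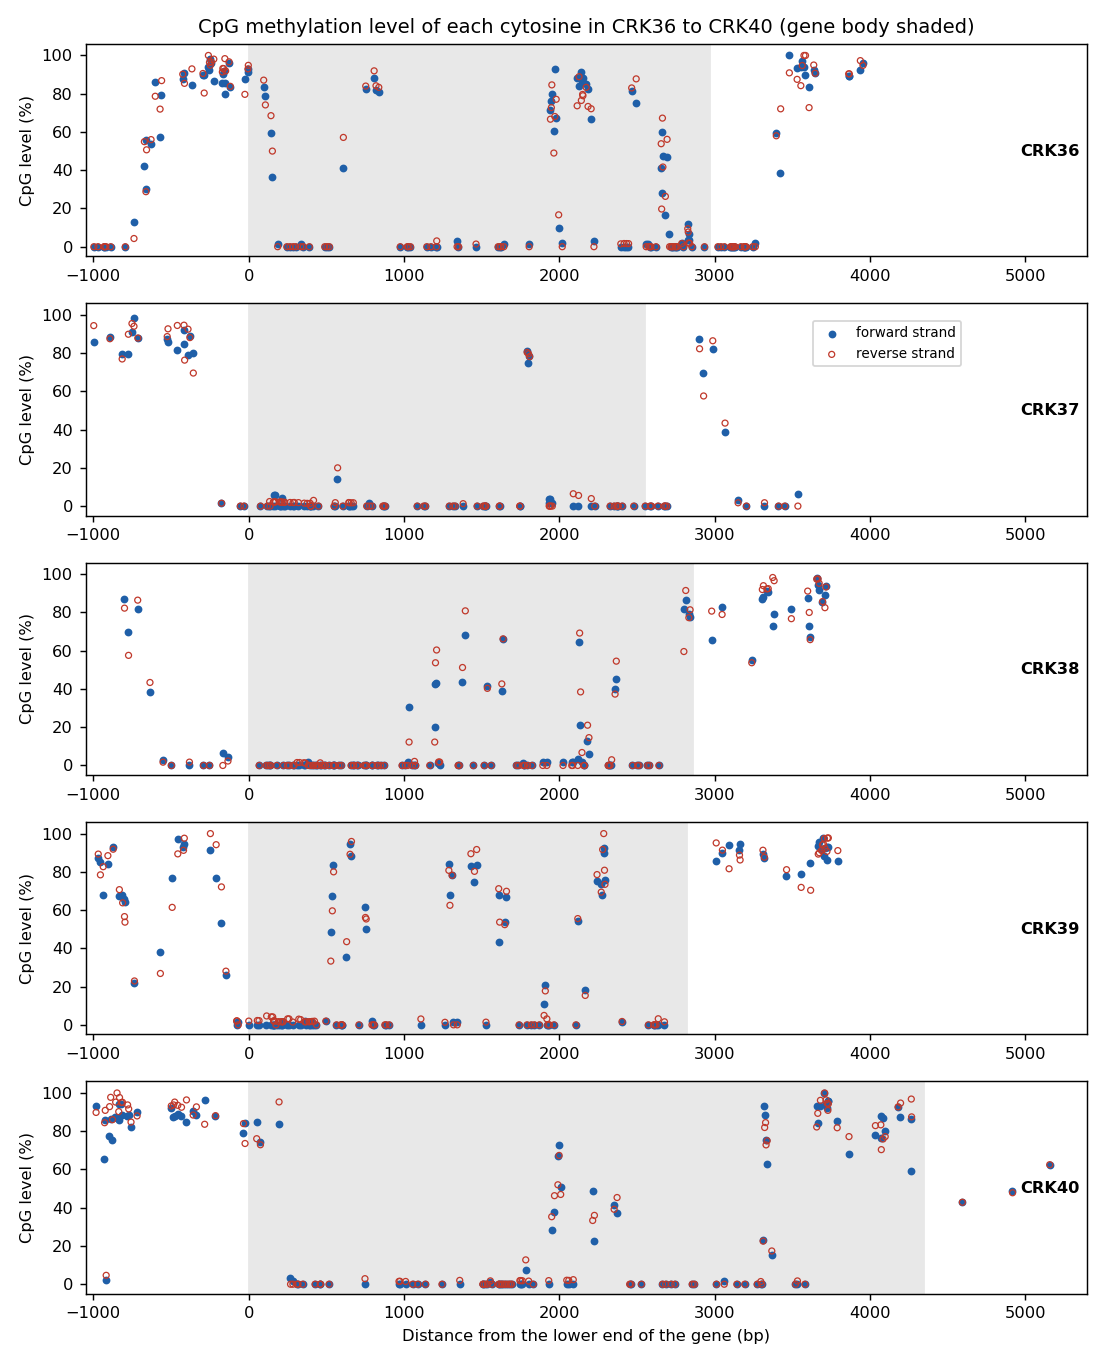
Level of each CpG cytosine (%, vertical axis) against its distance from the lower end of the gene (bp, horizontal axis) in CRK36 to CRK40, with 1000 bp on either side, the gene body shaded and the strands as filled and open points. Most points inside the bodies lie at 0% (515 of 902), and the methylated ones form short groups that have the same place on both strands.

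The methylated cytosines were not spread evenly. Positions are counted in bp from the lower coordinate of each gene, because strand is missing from the gene table and the start of transcription cannot be told from its end. When each body was divided into 10 equal parts, 26 of the 50 parts had a level below 5% and 16 had 25% or more. In CRK36 the level was 34.3% over bp 1 to 297, then 0.114% over bp 298 to 595, and 77.4% over bp 596 to 892. It was 0 of 864 calls over bp 893 to 1189, which allows a level of up to 0.347%. Such limits, given where no call was methylated, are 3 divided by the number of calls. The upper Wilson limits are somewhat higher, at 0.443% for this part. The level of CRK36 was again high over bp 1785 to 2081 (49.5%) and bp 2082 to 2378 (71.8%), and it was 5.59% over the last part, bp 2677 to 2973. Methylated and unmethylated segments thus alternated along CRK36.

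CRK40 was methylated chiefly at its higher end. Its last 2 parts, bp 3481 to 3915 and bp 3916 to 4350, had levels of 68.1% and 83.5%, and the first part, bp 1 to 435, had 28.4%. Between bp 436 and 1740 the 3 parts of CRK40 had at most 0.368%. Over bp 2611 to 3045 there was no methylated call among 902, which allows up to 0.333%.

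CRK39 had 5 of 10 parts at 25% or more, the most of the 5 genes. The highest were bp 1413 to 1694 with 62.7% and bp 2259 to 2541 with 67.1%. Its outermost parts were close to free of methylation, with 1.18% over bp 1 to 282 and 0.417% over bp 2542 to 2823. In this gene methylation was therefore an interior pattern, in contrast to CRK40.

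CRK38 had its highest part at the higher end, bp 2574 to 2859, with 49.7%. The interior of CRK38 reached 23.9% over bp 1145 to 1430 and 26.7% over bp 1431 to 1715, where cytosines of middle levels stood among unmethylated ones. CRK37 had 9 of 10 parts below 5%. The exception, bp 1787 to 2042, had 39.5% (36.0 to 43.1%).

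The longest unmethylated segment of each gene differed in length and place. A segment here is a run of at least 5 consecutive covered cytosines below 25% that lie at most 500 bp apart. In CRK37 it spanned 1923 bp with 116 cytosines, from 175 bp outside the gene to bp 1747, and 51 of 6358 calls were methylated (0.802%). In CRK40 it spanned 1664 bp with 80 cytosines, from bp 269 to bp 1932, at 0.543%. In CRK38 it spanned 1577 bp with 110 cytosines, from 552 bp outside the gene to bp 1024, at 0.266%. CRK36 had 832 bp at 0.312%, from bp 975 to bp 1806, and CRK39 had 576 bp at 1.13%, from 78 bp outside the gene to bp 497. Of these longest segments, those of CRK37, CRK38 and CRK39 ran across the lower gene end, whereas those of CRK36 and CRK40 lay inside the body. Shorter segments ran across the higher end of CRK36 and of CRK37. At CRK36 this segment spanned 554 bp at 0.925%, with more cytosines than the longest one (62 against 32). At CRK37 it spanned 759 bp with 44 cytosines at 0.437%.

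By the same definition at 25% or more, the stretch had 22 methylated runs. Of these, 13 lay wholly inside 1 of the 5 bodies, 4 reached across a gene end and 5 lay outside. With at least 10 cytosines asked of a run, 5 lay wholly inside the bodies in place of 13. The 13 were short, from 18 to 230 bp, with levels between 40.1% and 84.0% and a median of 75.3%. CRK39 held 6 of them. The most methylated of these was at bp 1430 to 1468, with 84.0%, and the longest was at bp 2242 to 2294, with 53 bp and 80.7%. CRK36 held 3, at bp 609 to 838 (77.4%), bp 1942 to 1980 (72.4%) and bp 2114 to 2205 (81.2%).

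CRK40 also held 3, at bp 1950 to 2009 (50.5%), bp 2226 to 2372 (40.1%) and bp 3321 to 3338 (79.1%), so that the first and the second were near the middle of the scale. CRK37 held 1, in which 6 cytosines within 18 bp had 78.6%. CRK38 held none. The 5 methylated cytosines of CRK37 above 75% belong to that small group.

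The 4 runs across a gene end joined CRK36, CRK38 and CRK40 to methylated DNA outside. At CRK36 the run began 672 bp below the gene and ended at bp 153, with a level of 79.0%. At CRK38 it covered only the last 59 bp of the gene and went on for 13830 bp in all, with 823 cytosines at 89.2%. At CRK40 a run of 1093 bp covered the first 196 bp of the gene at 88.2%, and another of 1502 bp covered its last 695 bp at 81.0%. Of the 44 cytosines of this last run, 38 lay inside the gene, and the 6 outside had 42.9% to 62.5%. CRK37 and CRK39 had no methylated run across either end.

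The flanks were more methylated than the bodies in every gene. The lower flank, the 1000 bp below the lower coordinate, had 62.9% in CRK36 (61.4 to 64.3%), 72.8% in CRK37 (70.8 to 74.7%), 28.6% in CRK38 (26.2 to 31.1%), 59.8% in CRK39 (57.9 to 61.6%) and 86.1% in CRK40 (84.8 to 87.3%). The higher flank had 35.3% in CRK36 (33.6 to 37.0%), 16.8% in CRK37 (15.3 to 18.4%), 84.6% in CRK38 (82.8 to 86.1%), 89.1% in CRK39 (87.8 to 90.3%) and 50.4% in CRK40 (45.3 to 55.5%). The last value rests on 6 cytosines. CRK37 and CRK38 are 1150 bp apart, so that the higher flank of CRK37 and the lower flank of CRK38 share most of their cytosines.

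Each body had a lower level than both of its flanks, and all 10 Newcombe intervals of the difference lay below 0. The difference of body minus flank was greatest for the higher flank of CRK38, at -75.6 points (-77.2 to -73.8), the lower flank of CRK37, at -68.6 points (-70.5 to -66.5), and the higher flank of CRK39, at -68.1 points (-69.5 to -66.5). It was smallest for the higher flank of CRK36, at -9.86 points (-11.8 to -7.96), and the higher flank of CRK37, at -12.5 points (-14.2 to -11.0). A body below both flanks was found in 5 of the 5 genes, against 22.6% of 26986 protein-coding genes. This count was chosen after the data had been seen. With flanks of 2000 bp it was also found in 5 of the 5, against 33.6%. With flanks of 500 bp it was found in 3 of the 5, against 15.0%. The higher flank of CRK36 then had 4.73% and the lower flank of CRK38 1.10%, each below its body.

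**Figure D2:**
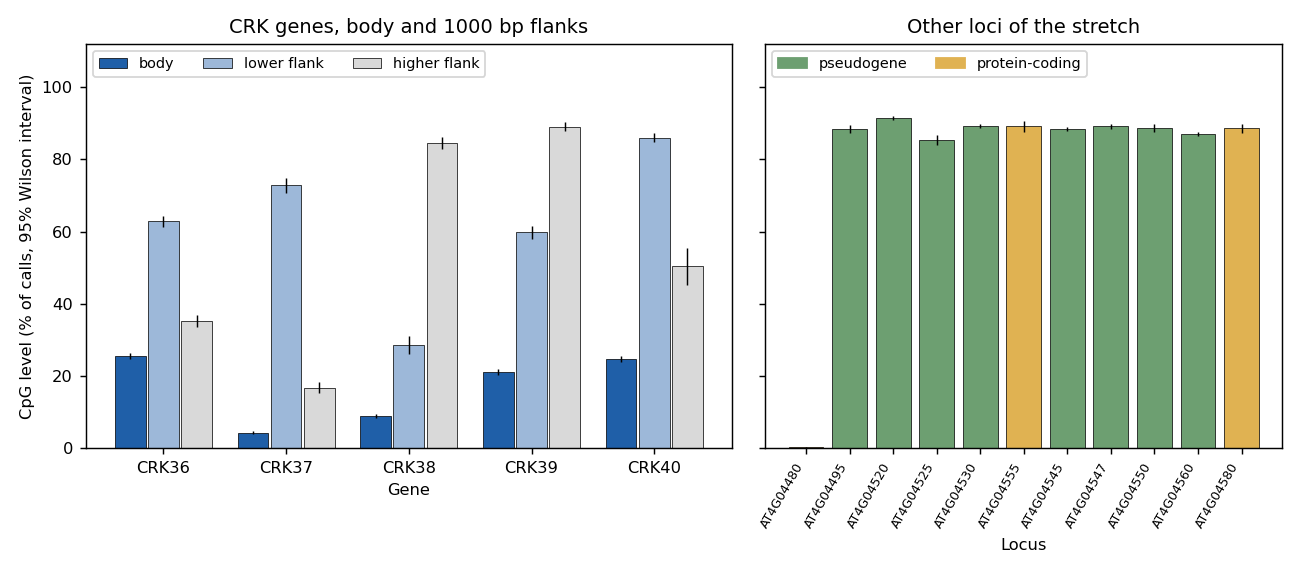
CpG level (% of calls, vertical axis, with 95% Wilson intervals) of body, lower flank and higher flank of the 5 CRK genes (left) and of the 11 other loci that overlap the stretch (right, pseudogenes green, protein-coding loci yellow). The bodies lie between 4.26% and 25.4%, each below its flanks, whereas 10 of the 11 other loci lie between 85.5% and 91.4%.

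The 250 bp next to a gene end varied more than the flanks as a whole. On the lower side they had 91.3% at CRK36, 82.8% at CRK40, 38.5% at CRK39, 3.30% at CRK38 and 0.606% at CRK37. On the higher side they had 90.5% at CRK39, 77.2% at CRK38 and 42.9% at CRK40, the last at 2 cytosines. No methylated call was read there among 1540 at CRK36, which allows up to 0.195%, or among 975 at CRK37, which allows up to 0.308%. CRK37 was thus the only one of the 5 with unmethylated DNA next to both ends. Its nearest methylated run lay farther out, and the window from 251 to 500 bp above the gene had 77.4%.

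The DNA between the genes differed in length and level. Between CRK38 and CRK39 lay 14567 bp with 3 annotated loci and a level of 87.8%, and between CRK39 and CRK40 lay 26295 bp with 5 loci and 83.5%. Between CRK36 and CRK37 lay 3680 bp with 1 locus and 70.4%. The 1150 bp between CRK37 and CRK38 hold no annotated locus and had 16.3% (14.8 to 17.8%), far below the other gaps. A single methylated run of 166 bp lay in that gap. In the gap between CRK39 and CRK40, which has the most loci, an unmethylated segment of 1676 bp (positions 2278051 to 2279726) had 0.288% at 50 cytosines.

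Of the 9 loci between the CRK genes, 8 are annotated as pseudogenes. Their levels had a median of 88.7% and ran from 85.5% in AT4G04525 to 91.4% in AT4G04520. Over the 8 pseudogenes, 1168 of 1222 cytosines (95.6%) were above 75% and 2 were below 25%, both in AT4G04560. Against 17.4% in the CRK bodies, the pseudogenes together had 88.9% (88.6 to 89.1%). The other pseudogenes were AT4G04495 with 88.5%, AT4G04530 with 89.3%, AT4G04545 with 88.5%, AT4G04547 with 89.2% and AT4G04550 with 88.8%. The study's supplement lists AT4G04550 as a copia-like retrotransposon, among those with hypomethylated cytosines after pathogen inoculation. None of the 5 CRK bodies came near the lowest pseudogene.

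The 9th locus, AT4G04555, is annotated as protein-coding and had 89.2% at 30 cytosines, inside the range of the pseudogenes. Of the protein-coding loci that overlap the ends of the stretch, AT4G04480 below CRK36 had 14 of 6448 calls methylated (0.217%), and AT4G04580 above CRK40 had 88.7%. The stretch is thus bordered by an unmethylated locus on the CRK36 side and by a methylated one on the CRK40 side. Another 4 loci whose tags fall numerically among the CRK genes (AT4G04505, AT4G04515, AT4G04535 and AT4G04565, annotated as lncRNA) lie 759 to 765 kb away in the annotation and were not counted.

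The runs outside the genes ranged from 166 bp to 15467 bp. The longest, between CRK39 and CRK40, spanned 15467 bp with 652 cytosines at 89.1%. The 5 runs that lay outside had levels from 68.4% to 89.1%, with a median of 87.6%, against 75.3% for the 13 inside the genes. In the bodies 105 of 902 cytosines (11.6%) had a middle level from 25% to 75%, against 5.57% of the cytosines between the genes.

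Both strands of a CpG had similar levels. The bodies held 85 CpGs in CRK36, 73 in CRK37, 104 in CRK38, 89 in CRK39 and 99 in CRK40 with both cytosines covered. The forward and reverse strands had 24.97% and 25.9% in CRK36, 4.53% and 4.09% in CRK37, 9.43% and 8.55% in CRK38, 20.4% and 21.9% in CRK39, and 23.5% and 26.0% in CRK40. The median difference between the strands of a CpG was at most 1.67 points, in CRK39. Only 1 CpG in the 5 bodies had strands more than 25 points apart, in CRK40, by 28.0 points. As a description across the CpGs of each gene, which share libraries and reads, Pearson's r between the strands was 0.98 to 0.99.

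**Figure D3:**
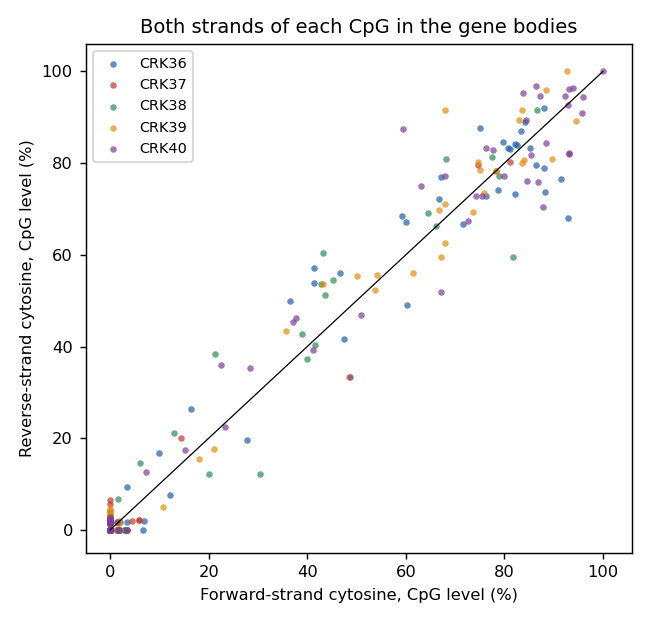
Level of the reverse-strand cytosine (%, vertical axis) against that of the forward-strand cytosine (%, horizontal axis) of each CpG in the 5 bodies, with 1 point for each CpG and the line of equal levels. The points follow the line, many lie at 0% on both strands, and the point farthest from the line, in CRK40, is 28.0 points off.

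The base after the CpG went with the level inside the bodies. Cytosines in CGA had 21.6% (330 cytosines) and those in CGG 21.5% (175 cytosines), whereas CGC had 15.1% (147 cytosines) and CGT 10.2% (9.68 to 10.7%, 250 cytosines). Of the CGT cytosines of the bodies, 14.4% were at 25% or more, against 29.7% of the CGA cytosines. Between the genes the order was the same at the low end, with 77.5% in CGT, but CGG came first with 86.6%, followed by 84.9% in CGA and 83.4% in CGC. Whether the base itself or its place in the genes goes with the level was not tested.

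The 5 genes lie in a part of the chromosome with a high level of methylation. Over the whole stretch the level was 62.1% (61.9 to 62.4%), against 28.7% for chromosome 4 and 26.6% for the nuclear genome. The 200 kb below the stretch had 70.0% and the 200 kb above it 43.7%, so the stretch lies between the levels of its neighbours. In windows of 10 kb the 7 windows over the stretch had 39.8% to 76.7%, and the 40 windows outside had 10.6% to 90.8%. None of the 7 windows over the CRK genes was as low as the nuclear level, while single windows on either side were.

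**Figure D4:**
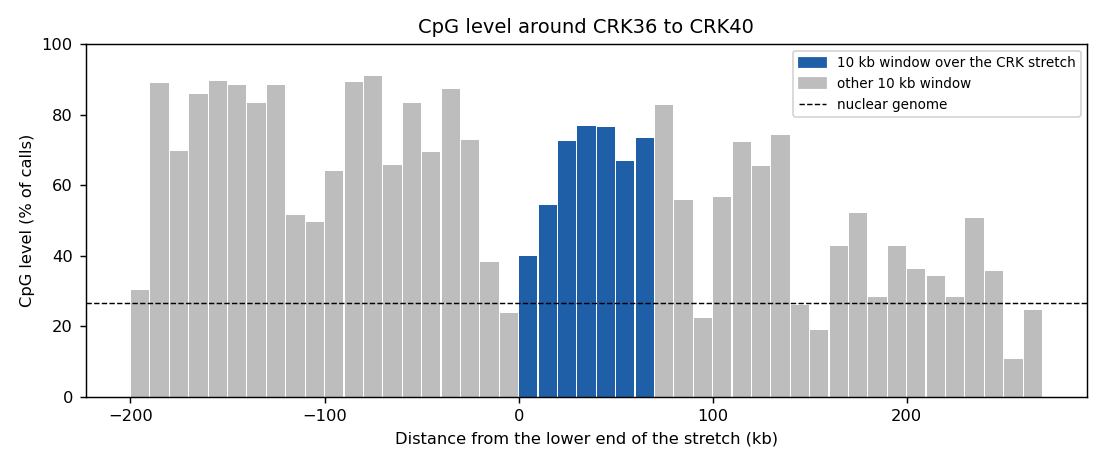
CpG level (% of calls, vertical axis) in windows of 10 kb against the distance from the lower end of the stretch (kb, horizontal axis), with the 7 windows over the CRK stretch in blue, the 40 others in grey and the nuclear level of 26.6% as a dashed line. All 7 windows of the stretch lie above that line, at 39.8% to 76.7%, and the windows on the lower side tend to be higher than those on the upper side.

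Set among 27044 protein-coding genes with at least 10 covered body cytosines, the bodies were not extreme. CRK36 stood at the 79.4th percentile of body levels, CRK40 at the 78.7th, CRK39 at the 74.6th, CRK38 at the 57.9th and CRK37 at the 48.9th. A body level of 25% or more was found in 1 of the 5 genes, CRK36, against 21% of the protein-coding genes, so this count is near the background. CRK40 lay just below that limit. The flanks stood higher. The lower flank was at the 97.2nd percentile in CRK40, the 94.4th in CRK37, the 92.6th in CRK36, the 92.0th in CRK39 and the 81.2nd in CRK38, among 27265 genes. The higher flank was at the 98.4th percentile in CRK39, the 96.7th in CRK38, the 89.4th in CRK40, the 84.4th in CRK36 and the 75.4th in CRK37. A flank at 50% or more was found in 5 of the 5 genes, against 17.9% of protein-coding genes. Both flanks at 25% or more were found in 4 of the 5, all but CRK37, against 6.67%. This last count depends on the flank length. With flanks of 500 bp the higher flanks of CRK36 and CRK37 had 4.73% and 22.3%, and the lower flank of CRK38 1.10%. With flanks of 2000 bp the higher flank of CRK37 had 5.02% and the lower flank of CRK38 14.4%. A flank at 50% or more was found in 5 of the 5 at both of these lengths.

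The same measures were taken in 37 other CRK genes of the genome. The 5 genes had a median body level of 21.1% (4.26% to 25.4%), against 5.77% (0.184% to 88.9%) in the other 37. All protein-coding genes had a median of 4.76%. The difference was greater in the flanks. The more methylated of both flanks had a median of 84.6% in the 5 genes, against 0.965% in the other CRK genes and 6.97% over all protein-coding genes. Among the other 37 genes, 3 had a flank at 50% or more, and 5 had a body at 25% or more.

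These 5 other genes with a methylated body were CRK1 (AT1G19090, listed as RKF2) with 88.9%, CRK28 (AT4G21400) with 46.1%, CRK25 (AT4G05200) with 44.1%, CRK29 (AT4G21410) with 41.2% and CRK41 (AT4G00970) with 25.1%. CRK28, a kinase known from immune signalling, and CRK29 overlap in the annotation and share cytosines. In CRK1 all 164 cytosines were methylated, and its flanks had 89.3% and 87.2%, so that body and flanks did not differ in the way they did in CRK36 to CRK40. The largest cluster of the family, the 20 genes whose tags begin with AT4G23, had a median body level of 5.76%, at most 18.3%, and no flank at 50% or more. None of the other protein-coding CRK genes had a body below both of its flanks of 1000 bp, although 1 did with flanks of 500 bp and 6 did with flanks of 2000 bp. These counts are descriptions, and no difference between the groups of CRK genes was tested.

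**Figure D5:**
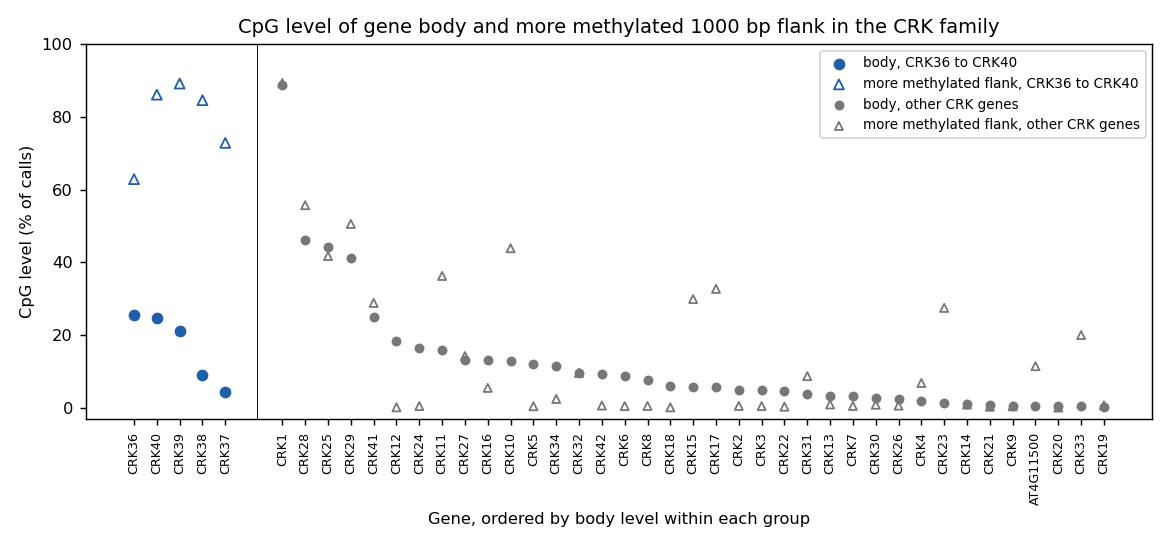
CpG level (% of calls, vertical axis) of the body (filled circles) and of the more methylated 1000 bp flank (open triangles) of CRK36 to CRK40 (blue, left) and of 37 other CRK genes (grey, right), each group ordered by body level. The triangles of the 5 genes lie between 62.9% and 89.1%, far above their circles, while most grey triangles lie near 0%, with a median of 0.965%.

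The genes outside the stretch with the most similar profile were found from 14 windows (10 equal parts of the body and 2 windows of 500 bp on either side, in order of coordinates) among 18199 protein-coding genes with data in each window. The measure was the root mean square difference over the windows. For CRK37 the nearest was AT5G24318, at 6.57 points, with a body level of 4.76% and flanks of 75.7% and 0.817%. For CRK38 it was AT2G23970, at 14.5 points. CRK36, CRK39 and CRK40 had no match that close. Their nearest genes were GYRB3 (AT5G04110) at 21.4 points, TSO1 (AT3G22780), which encodes a DNA-binding protein of floral development, at 21.2 points, and AT5G28470 at 20.7 points. The median over all candidates was 32.9 to 48.8 points, depending on the CRK gene.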

How the data were processed

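The libraries were made with enzymes that convert unmethylated cytosines, and were sequenced in pairs of reads. According to the study's methods, the authors used Trimmomatic to filter the reads and Bismark with Bowtie 2 to align them to TAIR10.1, kept unique hits, removed duplicates and trimmed biased ends. Reads of near-identical copies that map to more than 1 place are therefore missing. The authors deposited raw counts of methylated and unmethylated reads for each CpG cytosine and strand, pooled over libraries and not normalized. CHG and CHH methylation and single libraries were not analysed here.

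From these counts, levels were computed over all calls of covered cytosines, with 95% Wilson and Newcombe intervals. A cytosine was taken as methylated at 25% or more. Gene positions came from the RefSeq table of TAIR10.1, which gives neither strand nor exons, and no sequence was used. There was 1 pooled sample, so no test was made. Genes named were the 5 CRK genes, the loci that overlap their stretch, the other CRK genes with a body level of 25% or more, and for each CRK gene the nearest profile outside the stretch. The 5 genes and all lists, rules and limits were chosen with earlier results of these data known. Alternatives covered coverage minimums, flank lengths, limits for methylated and intermediate cytosines, runs, and averaging. The calculation of body levels and their intervals was checked on simulated data with independent calls. All calculations were run in Python 3.11.15 with pandas 2.3.3, numpy 2.4.6, matplotlib 3.10.9 and scipy 1.17.1.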

Additional observations from a re-analysis of the deposited data

How the results depend on the processing

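Of 103 values under other settings, 65 stayed within a tolerance and 38 did not. The median body level was that of CRK39 under every setting, so these values were counted both as median and as CRK39. The tolerance was the 95% Wilson interval for a level (for the median flank level, the medians of the interval bounds), a factor of 1.5 for a count and 5 points for a percentile. The level of single bodies held in 23 of 25 cases, but most of these cases were coverage settings that changed few or no cytosines. The exceptions were CRK40 with 27.1% for the mean over cytosines and 27.2% with strands summed. The median flank level of 61.3% became 56.4% with flanks of 500 bp, 76.1% with flanks of 2000 bp and 66.3% without cytosines of another gene. The count of bodies below both flanks was itself chosen after seeing the data, and was 5 of 5 with flanks of 1000 bp and of 2000 bp. With flanks of 500 bp it was 3 of 5, and body minus flank changed sign in 2 genes, since the higher flank of CRK36 had 4.73% and the lower flank of CRK38 1.10%. The 22 methylated runs became 13 (and the 13 within bodies became 5) with at least 10 cytosines in a run and 40 with gaps of at most 200 bp. The other CRK genes with a methylated body numbered 13 at 10% or more and 1 at 50% or more. The median percentile of 74.6 became 91.1 for the body with 1000 bp on either side.

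Pooling hides the spread between plants and treatments, which limits every value given here. Coverage minimums of 10 and 20 reads and the removal of the deepest cytosines changed few or no cytosines of the bodies, so they bear little on stability. No paired analysis was possible because replicates were merged into 1 pooled sample.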

Other observations

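Single CpGs whose level went against their neighbours were looked for after the data had been seen. They were CpGs below 25% on both strands with the nearest 2 CpGs on either side methylated. The stretch held 5 of them, of which 2 lay in CRK39. At bp 709 of CRK39 (position 2260206) the strands had 0 of 61 and 0 of 67 methylated calls, between neighbours of 92.5% and 58.8%. At bp 1527 of CRK39 (position 2261024) they had 0% and 1.41%, between neighbours of 88.0% and 69.6%. In the lower flank of CRK40 (position 2287697) they had 2.13% and 4.65%, between neighbours of 88.3% and 84.6%. This CpG holds the pair of cytosines below 25% in the pseudogene AT4G04560.

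The other 2 were less clear, with 21.7% and 23.0% in the lower flank of CRK39 and 22.4% and 11.7% between CRK39 and CRK40. Whether the sequence of the plants differs from TAIR10.1 at these CpGs was not tested.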
